A study of Mus musculus with 4 samples.

Results

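10 genes of replication-coupled chromatin assembly and DNA methylation were examined in 4 cultures of mouse embryonic fibroblasts (MEFs). They were taken from the whole-genome array by gene symbol, with every probe that carries the symbol: Chaf1a, Chaf1b, Asf1a, Asf1b, Nasp, Uhrf1, Dnmt1, Hells, Dnmt3a and Dnmt3b. These 10 genes have 19 probes among the 45281 on the array. Of the 10, 8 had a probe above background on at least 1 array and so stand among the 12616 genes analysed, and the other 2, Hells and Dnmt3a, were never above background.

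All 4 cultures were strain FVB;129 embryonic fibroblasts carrying floxed Rb alleles (Rb f/f). Parental MEFs received a solution lacking TAT-Cre, a cell-penetrating form of the Cre recombinase, and then media alone. Rb-deleted MEFs received TAT-Cre in 2 treatments of 1 hr, 3 hr apart, and then media alone. WT Rb-HA MEFs received TAT-Cre and a retrovirus carrying wild-type Rb, and ΔCdk Rb-HA MEFs (dCDK in the labels) received TAT-Cre and a retrovirus carrying an Rb whose Cdk phosphorylation sites were mutated, in both cases expressed at the time of Rb deletion. Per the study's methods and legends, which the labels do not repeat, every culture was contact inhibited, released for 4 hr into early G1 phase and given doxorubicin, a DNA-damaging drug, at 100 ng/ml for 3 hr. The ratios ask how far each member's mRNA departed from the parental level without Rb, and how far each of the 2 Rb proteins returned it. The names are shortened to WT Rb and ΔCdk Rb from here on.

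There was 1 array per condition, so no difference has a replicate check and no p-value is given. Values are intensities, the brightness of a probe averaged over its beads, and the ± after a value is the bead standard error, which covers the spread of beads within 1 array and nothing between cultures. The 4 arrays lay on 1 chip at 1 position each, so that position and condition cannot be told apart, and the retrovirus cannot be told apart from the Rb protein it carried in a ratio of an infected to an uninfected culture. Mean intensity over all probes ran from 336 to 346 and each array detected 15950 to 16740 probes. The Rb1 probe at transcript position 4421 read 543 on the parental array and 160.5, 181 and 170.1 on the Rb-deleted, WT Rb and ΔCdk Rb arrays, which matches the TAT-Cre part of the labels. The probe was as low in the 2 cultures labelled as carrying a retroviral Rb and does not check that part. All 12 fibroblast markers were detected, of which Col3a1 (-0.73) and Lum (-0.50) had the largest Rb-deleted log2 ratios to parental, with 4 markers above 0, 8 below and a median of -0.15. Of 13 endothelial and epithelial markers 5 were detected and none passed 1.6-fold, Cdh1 and Krt18 having the largest Rb-deleted ratios, and Pecam1, Cdh5 and Kdr were not detected. Of 18 leukocyte markers 14 were detected, and their summed intensity was 11607 in parental MEFs against 5945, 5427 and 6797 in the Rb-deleted, WT Rb and ΔCdk Rb cultures, with Ptprc, Lyz1, Fcer1g and Itgam not detected on any array. The largest Rb-deleted log2 ratios among them were those of Mpeg1 (-1.78) and Emr1 (-1.69). Between 10 and 11 of those 14 were more than 1.6-fold lower on each TAT-Cre array, against 2.98%, 2.46% and 3.3% of all genes. Ratios of the TAT-Cre arrays to the parental array are the base of most comparisons here. The part of the leukocyte markers in the members' values was not tested. In bulk RNA of this kind, fewer cells that express a gene and less of its mRNA per cell cannot be told apart.

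When DNA is copied, nucleosomes must be rebuilt on both daughter strands and the methyl groups on cytosine must be restored on the new strand. Nasp holds a soluble reserve of newly made histones, Asf1a and Asf1b pass histone H3-H4 dimers on, and chromatin assembly factor CAF-1, built from Chaf1a, Chaf1b and Rbbp4, deposits them behind the fork, where its large subunit Chaf1a binds the sliding clamp Pcna. Uhrf1 recognises hemimethylated CpG sites and brings in Dnmt1, the maintenance methyltransferase, while Hells is a chromatin remodeller needed for normal methylation and Dnmt3a and Dnmt3b place methyl groups de novo. Many genes of DNA replication are switched on at the G1/S boundary by E2F transcription factors. Rb holds these factors in check until Cdks hyper-phosphorylate it, and the study reports that mono-phosphorylated Rb is active in early G1 phase.

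The promoter sequences of the members show which of them carry E2F-type letters near their start. All 10 members were found in the RefSeq promoter table (assembly GRCm38.p6), which holds a window from 250 bases before to 50 bases after each annotated start. The windows were searched on both strands for TTCCCGC and for TTCGCGC, as well as for TTGCCGC and for TTGGCGC, the usual forms of the E2F core. At least 1 of these was present for 5 of the 10 members (Chaf1a, Chaf1b, Uhrf1, Dnmt1 and Hells), and for Asf1a, Asf1b, Nasp, Dnmt3a and Dnmt3b none was in the window. Over the whole table, 10.9% of 27025 genes and 9.57% of 32851 windows held a match. The windows were also searched for CCAAT (the NF-Y box, in 37.4% of windows), TTTGAA (the cell cycle homology region, CHR, in 17.9%) and GGGCGG (the GC box, in 35.7%). In the members' windows no E2F match shared bases with a match of the other 3 motifs. A match describes letters and not a bound site, and a missing match says only that these letters are not in the window.

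The 250 bases before the start are printed for Chaf1a, Chaf1b and Uhrf1, which had both an E2F match and the largest ratios, and for Nasp, which was also higher without Rb although its window held no match. Letters run 5′ to 3′ on the gene's own strand, with the E2F matches in capitals. Chaf1a is at chr17:56040166-56040415 (plus strand), Chaf1b at chr16:93883651-93883900 (plus strand), Uhrf1 at chr17:56303087-56303336 (plus strand, the first of its 2 starts) and Nasp at chr4:116627952-116628201 (minus strand).
Chaf1a: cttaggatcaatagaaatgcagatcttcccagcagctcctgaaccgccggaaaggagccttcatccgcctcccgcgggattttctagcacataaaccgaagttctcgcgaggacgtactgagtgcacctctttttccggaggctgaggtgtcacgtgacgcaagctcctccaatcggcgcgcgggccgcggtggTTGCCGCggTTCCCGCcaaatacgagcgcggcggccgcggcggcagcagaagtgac
Chaf1b: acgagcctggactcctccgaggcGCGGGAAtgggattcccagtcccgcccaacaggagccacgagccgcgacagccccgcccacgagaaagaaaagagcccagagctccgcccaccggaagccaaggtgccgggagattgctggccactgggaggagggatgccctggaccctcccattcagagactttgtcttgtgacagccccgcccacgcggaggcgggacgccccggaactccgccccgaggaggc
Uhrf1: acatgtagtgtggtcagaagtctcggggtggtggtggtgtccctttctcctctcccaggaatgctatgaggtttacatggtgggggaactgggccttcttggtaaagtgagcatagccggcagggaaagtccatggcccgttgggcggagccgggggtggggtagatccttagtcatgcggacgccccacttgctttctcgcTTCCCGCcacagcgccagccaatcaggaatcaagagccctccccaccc
Nasp: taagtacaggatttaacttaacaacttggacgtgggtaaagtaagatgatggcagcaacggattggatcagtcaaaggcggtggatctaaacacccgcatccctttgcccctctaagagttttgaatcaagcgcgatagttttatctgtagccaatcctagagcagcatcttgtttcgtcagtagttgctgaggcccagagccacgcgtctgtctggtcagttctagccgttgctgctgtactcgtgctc
Chaf1a had 2 matches on the same strand, at 56 to 50 and at 47 to 41 bases before its start. Chaf1b had 1 at 227 to 221 bases before its start and another just after it, between bases 27 and 33 of the transcript. Uhrf1 had 1 at 48 to 42 bases before this start and another at 184 to 178 bases before its second start.

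For Dnmt1 and Hells single matches are shown with 10 bases on either side. The Dnmt1 stretch is at chr9:20952826-20952852 (minus strand), 219 to 213 bases before the start numbered 1 of its 3 annotated starts. Starts are numbered by genome coordinate, so on the minus strand this one is the furthest downstream of the 3. Another 2 matches of that window, at 158 to 152 bases before the start and between bases 35 and 41 after it, are not printed. The windows of its other 2 starts held no match. The first Hells stretch is at chr19:38930919-38930945 and the second at chr19:38930937-38930963 (plus strand), which places the capitals at 61 to 55 and at 43 to 37 bases before its start. Hells is shown because its window holds 2 matches, on opposite strands, and its probes were never above background.
Dnmt1: gtttccgcgcGCGCGAAaaagccgggg
Hells, first match: ccaccgggttTTCCCGCgaaagagaag
Hells, second match: aaagagaagcGCGCGAAtttcttgcgc

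**Figure D1:**
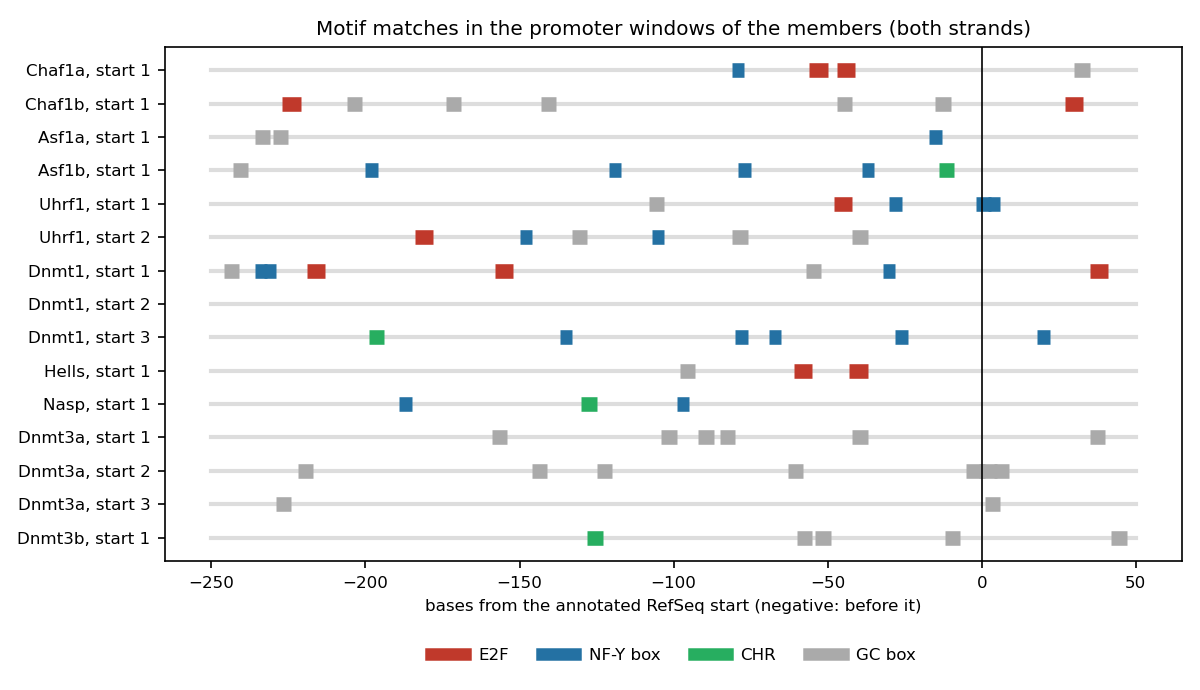
Position of motif matches in the RefSeq promoter windows of the 10 members, 1 line per annotated start. The horizontal axis gives bases from the start, negative before it. Coloured blocks are matches on either strand of the E2F, NF-Y (CCAAT), CHR and GC box letters. Red E2F blocks appear for Chaf1a, Chaf1b, Uhrf1, the Dnmt1 start numbered 1 and Hells.

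The plot of motif positions also shows what the other members carried. The Nasp window held CCAAT at 189 to 185 and at 99 to 95 bases before its start and TTTGAA at 130 to 125. The Asf1b window held 4 CCAAT matches and a TTTGAA match at 14 to 9 bases before the start. The Dnmt3a and Dnmt3b windows were marked by GC boxes and held no CCAAT. The Dnmt3b window also held TTTGAA at 128 to 123 bases before its start.

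Loss of Rb went with higher mRNA of Chaf1a, Chaf1b, Nasp, Uhrf1 and Dnmt1. A gene was counted as past the filter if its ratio exceeded 1.6-fold, the filter of the study, which is 0.68 on the log2 scale. On the Rb-deleted array 5 of the 8 detected members were more than 1.6-fold higher than on the parental array (Chaf1a, Chaf1b, Uhrf1, Dnmt1 and Nasp), where 2.14% of all 12616 genes were. The median log2 ratio was 1.20 for the 8 members and 0.02 for all genes. All 8 ratios were above 0, that of Asf1a (0.11 ± 0.15) within its bead standard error.

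Re-expression of WT Rb left a smaller difference. Against the parental array, 2 of the 8 members (Chaf1b and Nasp) were more than 1.6-fold higher on the WT Rb array, against 0.888% of all genes, and the members' median log2 ratio was 0.39. On the ΔCdk Rb array 5 of 8 were more than 1.6-fold higher (Chaf1a, Chaf1b, Asf1b, Uhrf1 and Nasp), against 2.58% of all genes, with a median log2 ratio of 0.87. Asf1b, not above background on the parental array, passed the detection filter only through the arrays where it was higher, and without it the count is 4. It fell short of the filter without background correction or with a larger offset, and averaging all detected probes took out Nasp in its place, each leaving a count of 4. No detected member was more than 1.6-fold lower than parental on the Rb-deleted, the WT Rb or the ΔCdk Rb array, where 2.98%, 2.46% and 3.3% of all genes were. These 3 comparisons share the parental array, so a low or high parental reading moves all of them together.

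**Figure D2:**
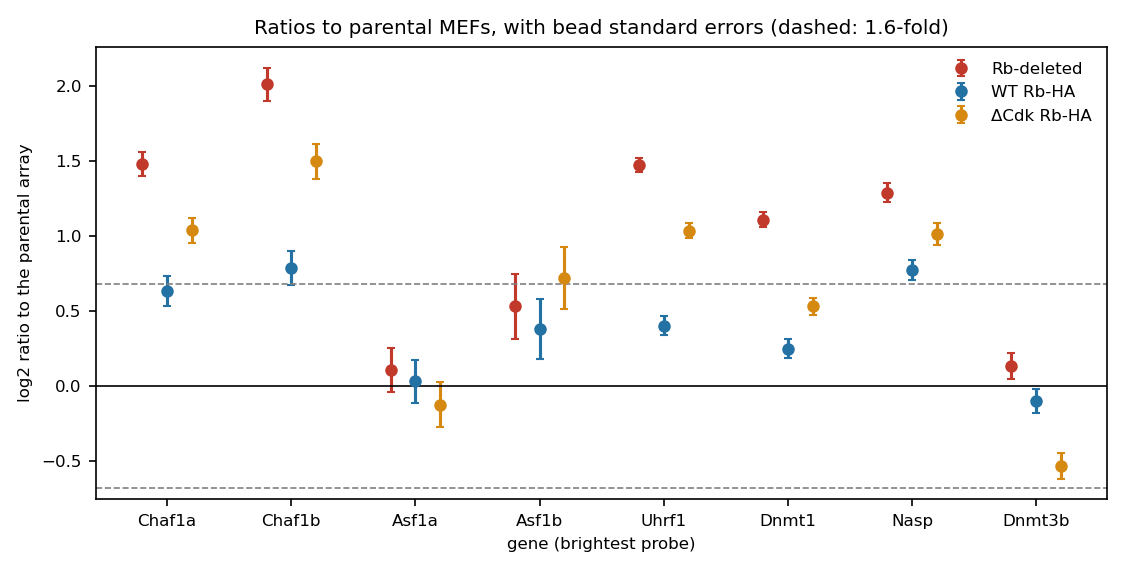
Log2 ratio of each detected member to the parental array (vertical axis) for the Rb-deleted, WT Rb and ΔCdk Rb arrays, for the probe that stands for the gene. Bars are bead standard errors within arrays and dashed lines mark 1.6-fold; Chaf1a, Chaf1b, Uhrf1, Dnmt1 and Nasp lie highest without Rb and lowest of the 3 with WT Rb.

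The direct ratios between the TAT-Cre arrays do not use the parental array. Against the Rb-deleted array, 4 of the 8 members (Chaf1a, Chaf1b, Uhrf1 and Dnmt1) were more than 1.6-fold lower on the WT Rb array, where 0.484% of all genes were. The members' median was -0.68, against -0.02 for all genes. All 8 ratios were below 0, but those of Asf1a (-0.08 ± 0.15) and Asf1b (-0.15 ± 0.19) were within their bead standard errors. On the ΔCdk Rb array no member was more than 1.6-fold lower than on the Rb-deleted array, where 1.95% of all genes were. Here 7 of 8 ratios were below 0, with a median of -0.44 against -0.03 for all genes. Between the 2 Rb proteins, 1 member (Chaf1b) was more than 1.6-fold higher with ΔCdk Rb than with WT Rb, against 0.84% of all genes. The median of this last ratio was 0.31, against -0.01 for all genes, with 6 of 8 members above 0.

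The order of the 4 arrays was shared by the members past the filter without Rb. Of the 7 members detected on every array, 5 had the order parental, WT Rb, ΔCdk Rb, Rb-deleted from low to high, namely Chaf1a, Chaf1b, Nasp, Uhrf1 and Dnmt1. That order was found in 614 of the 10837 genes detected on all arrays, or 5.67%. Passing the filter without Rb already places Rb-deleted above parental in these 5. The 10837 genes were not chosen in that way, and the share among genes that were was not computed. Asf1a and Dnmt3b had other orders on the normalized scale, with ΔCdk Rb lowest and Rb-deleted highest in both. No Asf1a ratio reached 2 bead standard errors, and its deposited intensity was 60.9 both without Rb and with WT Rb, so its order is not settled. For Dnmt3b the ratio of Rb-deleted to parental was also within 2 bead standard errors.

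**Figure D3:**
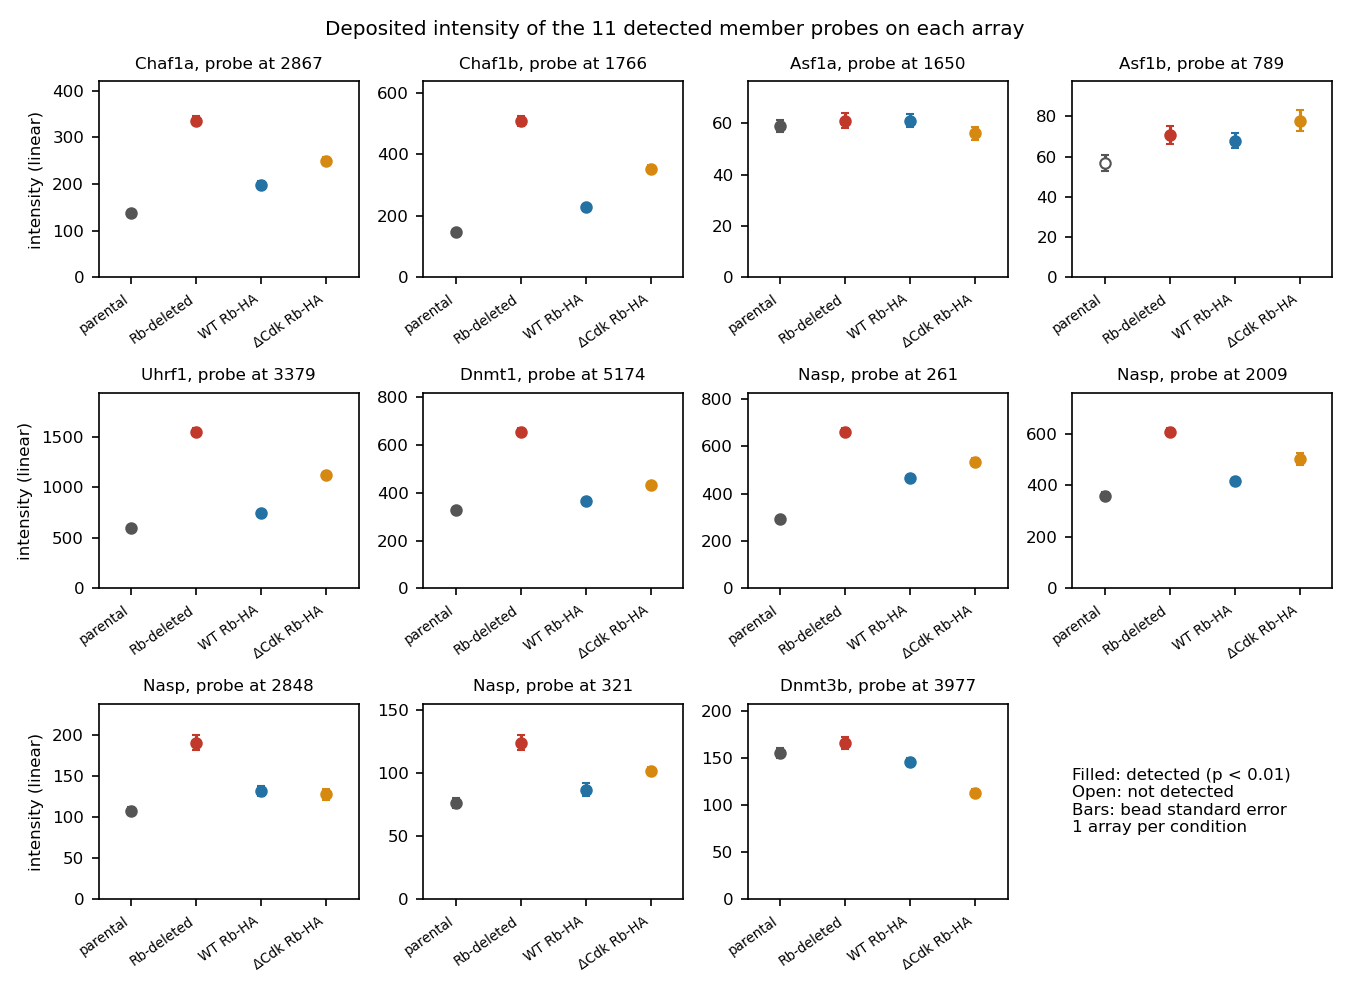
Deposited intensity (vertical axis, linear, from 0) of the 11 member probes detected on at least 1 array, 1 point per array, with bead standard errors; the number after each gene is the probe's position in its transcript and an open point was not above background. The probes of Chaf1a, Chaf1b, Uhrf1, Dnmt1 and Nasp are lowest in parental and highest in Rb-deleted MEFs, while Asf1a is level and Dnmt3b is lowest with ΔCdk Rb.

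Among the histone chaperones, Chaf1b, the middle subunit of CAF-1, had the largest ratio of all members. Its probe (transcript position 1766, chromosome 16) read 146 ± 8.6 in parental, 509 ± 15.8 in Rb-deleted, 229 ± 6.8 in WT Rb and 353 ± 12.0 in ΔCdk Rb MEFs. Every step between these arrays was larger than 2 bead standard errors. On the normalized log2 scale the Rb-deleted ratio to parental was 2.01 ± 0.11, or 4.02-fold, and the WT Rb and ΔCdk Rb ratios were 0.78 ± 0.11 and 1.498 ± 0.12. Thus 39.0% of the log2 difference between Rb-deleted and parental MEFs was left with WT Rb and 74.6% with ΔCdk Rb. The direct ratio of ΔCdk Rb to WT Rb was 0.71 ± 0.07, or 1.64-fold.

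Chaf1a, the large CAF-1 subunit that binds the sliding clamp, followed the same order at smaller ratios. Its probe (position 2867, chromosome 17) read 138 ± 5.3, 336 ± 10.2, 198 ± 8.4 and 249 ± 8.0 in parental, Rb-deleted, WT Rb and ΔCdk Rb MEFs. The log2 ratio to parental was 1.48 ± 0.08 without Rb (2.79-fold), 0.63 ± 0.10 with WT Rb, which is below the 1.6-fold filter, and 1.04 ± 0.08 with ΔCdk Rb. Of the log2 difference without Rb, 42.8% was left with WT Rb and 70.2% with ΔCdk Rb. The ratio between the 2 Rb proteins was 0.41 ± 0.09, larger than 2 bead standard errors and below the filter.

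The remaining CAF-1 subunit and the clamp did not move with these 2 subunits past the filter. Rbbp4, which CAF-1 shares with several other chromatin complexes, read 376, 412, 381 and 372 in parental, Rb-deleted, WT Rb and ΔCdk Rb MEFs, with log2 ratios to parental of 0.19 ± 0.09, 0.08 ± 0.08 and 0.07 ± 0.10. Pcna read 304, 358.5, 294 and 376 in the same order of arrays. Its log2 ratios to parental were 0.30 ± 0.11, 0.00 ± 0.11 and 0.42 ± 0.11. The direct log2 ratio of ΔCdk Rb to Rb-deleted was 0.12 ± 0.12, within 2 bead standard errors, so the order of these 2 arrays is not settled.

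Nasp, the chaperone of the soluble histone pool, was read by 4 probes. Of these, 3 carry an Entrez gene number, which RefSeq places on chromosome 4. All 4 probes were lowest in parental and highest in Rb-deleted MEFs. The probe that stands for the gene (position 261) read 291.5 ± 9.2, 662 ± 16.7, 467 ± 12.2 and 533 ± 16.9 in parental, Rb-deleted, WT Rb and ΔCdk Rb MEFs. Its log2 ratios to parental were 1.29 ± 0.06, 0.77 ± 0.07 and 1.01 ± 0.07. This probe gave the highest ratios of the 4 on all 3 TAT-Cre arrays. The probe at position 2009 read 361, 609, 415 and 503, that at 2848 read 108, 191, 132 and 128, and that at 321 read 76.7, 124, 86.9 and 102. Over the 4 probes the Rb-deleted log2 ratio ran from 0.84 to 1.29, the WT Rb ratio from 0.24 to 0.77 and the ΔCdk Rb ratio from 0.34 to 1.01.

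The Nasp probes disagreed on the WT Rb array and on the order of the 2 Rb proteins. Only the probe at position 261 was past 1.6-fold with WT Rb, and the other 3 gave 0.26, 0.37 and 0.24. Of the 4 probes, 3 read higher with ΔCdk Rb than with WT Rb, by 0.24 ± 0.06, 0.34 ± 0.09 and 0.36 ± 0.14, and the probe at position 2848 gave -0.02 ± 0.13. Which transcript forms each probe covers was not examined here.

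The paralogous chaperones Asf1a and Asf1b were the dimmest detected members. Asf1a (position 1650, chromosome 10) read 58.9 ± 2.4, 60.9 ± 2.9, 60.9 ± 2.6 and 56.0 ± 2.5 in parental, Rb-deleted, WT Rb and ΔCdk Rb MEFs, close to the lowest detected intensity of each array (53.8 to 58.4). None of its 6 log2 ratios reached 2 bead standard errors, and they lay between -0.23 ± 0.16 and 0.11 ± 0.15. Its second probe, at position 2042, was not above background on any array.

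Asf1b (position 789, chromosome 8), the form found mainly in dividing cells, was not above background on the parental array, where it read 56.8 ± 3.7 with a detection p-value of 0.0118, and was above it on the other 3 arrays at 70.5 ± 4.5, 67.9 ± 3.6 and 77.8 ± 5.2. Against parental MEFs it was at least 1.44-fold higher without Rb, at least 1.29-fold with WT Rb and at least 1.64-fold with ΔCdk Rb. Each fold was computed on the normalized scale from the dimmest detected probes of the parental array and leaves out the bead error. The log2 ratios were 0.53 ± 0.22, 0.38 ± 0.20 and 0.72 ± 0.21. That with WT Rb was within 2 bead standard errors of 0, so a higher level there is not settled. The folds are bounds for that background correction alone, since without it the log2 ratios were 0.33, 0.23 and 0.46. Asf1b was the only detected member that read highest with ΔCdk Rb. Its log2 ratio of ΔCdk Rb to Rb-deleted was 0.19 ± 0.19, within its bead standard error, so the order of these 2 arrays is not settled.

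Among the maintenance methylation genes, Uhrf1, the reader of hemimethylated CpG sites, was the brightest member on every array. Its probe (position 3379, chromosome 17) read 594 ± 13.7 in parental, 1552 ± 35.4 in Rb-deleted, 750.5 ± 24.5 in WT Rb and 1119.9 ± 29.8 in ΔCdk Rb MEFs. The log2 ratio to parental was 1.47 ± 0.05 without Rb (2.77-fold), 0.40 ± 0.06 with WT Rb and 1.04 ± 0.05 with ΔCdk Rb. WT Rb left 27.3% of the log2 difference and ΔCdk Rb left 70.3%. The ratio between the 2 Rb proteins, 0.63 ± 0.06 or 1.55-fold, was just short of the filter. A second Uhrf1 probe at position 684 was not above background on any array and gives no level.

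Dnmt1, the maintenance methyltransferase that Uhrf1 recruits, was closest to the parental level with WT Rb among the 5 members past the filter without Rb. This holds for the probes that stand for the genes, since the Nasp probe at position 321 gave a similar ratio of 0.24. Its probe (position 5174, chromosome 9) read 327 ± 7.3, 657 ± 15.8, 368 ± 12.4 and 433 ± 12.3 in parental, Rb-deleted, WT Rb and ΔCdk Rb MEFs. The log2 ratios to parental were 1.11 ± 0.05 (2.16-fold), 0.25 ± 0.06 and 0.53 ± 0.06, of which the first alone was past the filter. WT Rb left 22.4% of the log2 difference and ΔCdk Rb 48.1%, the smallest share with ΔCdk Rb among the probes that stand for these 5 genes. The ratio of ΔCdk Rb to WT Rb was 0.28 ± 0.07, larger than 2 bead standard errors.

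Hells, the remodeller of the maintenance group, gave no level. Its 2 probes (positions 2686 and 1613, chromosome 19) read between 31.8 and 42.7 over the 4 arrays, below the lowest detected intensity of each. On all 4 arrays both were not above background, so no ratio is given for it.

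Of the de novo methyltransferases only Dnmt3b gave a level, and it did not follow the maintenance enzyme. Dnmt3b (position 3977, chromosome 2) read 155 ± 5.5, 166 ± 6.4, 145 ± 4.2 and 113 ± 3.8 in parental, Rb-deleted, WT Rb and ΔCdk Rb MEFs. It stayed within 2 bead standard errors of the parental array without Rb (0.14 ± 0.09) and with WT Rb (-0.10 ± 0.08), and was lowest with ΔCdk Rb, at a log2 ratio of -0.53 ± 0.09 to parental and -0.66 ± 0.09 to Rb-deleted, the second being a 1.59-fold lower level. Neither passed the 1.6-fold filter. A second Dnmt3b probe (position 3630) and all 3 Dnmt3a probes (2 of them placed on chromosome 12) were not above background on any array, the Dnmt3a probes reading between 25.6 and 43.5.

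**Figure D4:**
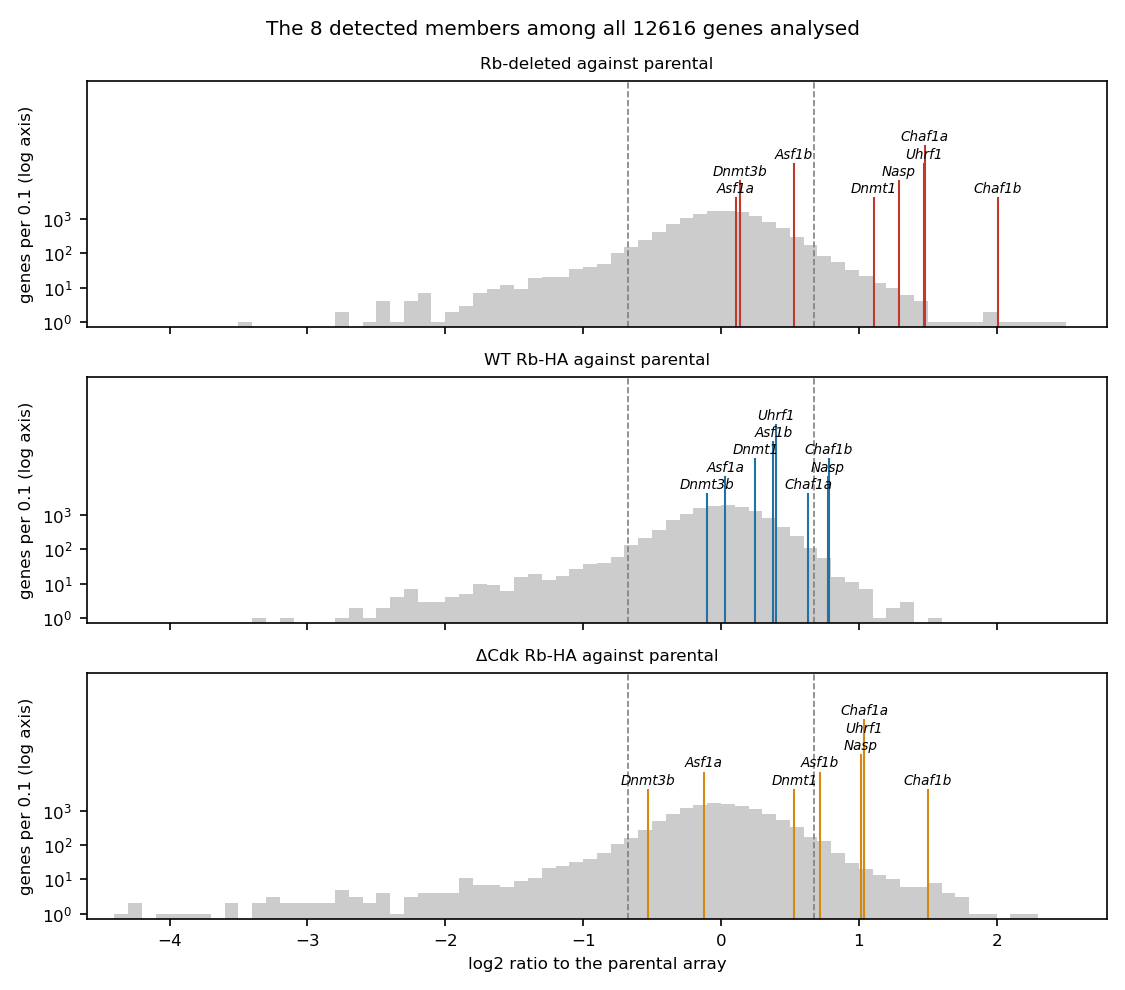
Number of genes per 0.1 step of log2 ratio to the parental array (grey bars, log axis) for all 12616 genes, in the Rb-deleted, WT Rb and ΔCdk Rb cultures, with the 8 detected members as vertical lines whose height only spaces the names. Dashed lines mark 1.6-fold; 5, 2 and 5 members lie past the right-hand line in the 3 panels and none past the left-hand line.

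The partners of the members were read from lists of related genes, chosen by function but with earlier results of these data known. Of 14 genes that work with the methylation machinery 13 were detected, with median log2 ratios of 0.18, 0.16 and 0.06. Of these, 2 were more than 1.6-fold higher without Rb, 0 with WT Rb and 2 with ΔCdk Rb. The shares of all genes were 2.14%, 0.888% and 2.58%. The 2 without Rb were Lig1, the ligase that joins Okazaki fragments, and Cdca7, the zinc-finger protein that activates Hells. Lig1 read 175, 516, 247 and 320 in parental, Rb-deleted, WT Rb and ΔCdk Rb MEFs, with log2 ratios to parental of 1.71 ± 0.12, 0.59 ± 0.13 and 1.03 ± 0.12. Cdca7 read 541, 1276, 626 and 730, with ratios of 1.33 ± 0.06, 0.27 ± 0.07 and 0.55 ± 0.06. Both had the array order of the 5 members named above. With ΔCdk Rb the 2 past the filter were Lig1 and Dnmt3l, the inactive cofactor of the de novo enzymes, which was named after its values were seen and read 66.8, 75.0, 75.2 and 102.

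The other histone chaperones had lower medians than the members. Of 24 listed genes 17 were detected. In Rb-deleted, WT Rb and ΔCdk Rb MEFs 1, 0 and 2 were more than 1.6-fold higher, against 2.14%, 0.888% and 2.58% of all genes. With ΔCdk Rb 1 was more than 1.6-fold lower, against 3.3% of all genes. Their median log2 ratios to parental were 0.15, -0.04 and -0.07. Hat1, which acetylates new histone H4, read 1438, 2713, 1860.1 and 2248 in parental, Rb-deleted, WT Rb and ΔCdk Rb MEFs, with log2 ratios of 0.98 ± 0.04, 0.44 ± 0.05 and 0.72 ± 0.04. Rbbp7, the partner of Hat1, read 613, 831, 885 and 979 and so was highest with ΔCdk Rb, at 0.78 ± 0.06. The chaperone that was lower was Daxx, which places the variant H3.3 and was named after its values were seen. Daxx read 387, 302, 264 and 192.5, lowest with ΔCdk Rb at a log2 ratio of -1.02 ± 0.10.

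Genes that read or remove DNA methylation, and the remodellers outside the member list, did not pass the filter on any of the 3 arrays. These were 5 detected methyl-CpG readers (of 8 listed), 5 demethylation factors (of 9) and 13 remodellers of the SNF2 type and their partners (of 15), with list medians between -0.16 and 0.05. The largest Rb-deleted ratios of the 3 lists were those of Mbd4 and Mbd3 (0.34), Apobec1 (-0.50) and Gadd45b (0.30), and Rad54l and Bptf (-0.36). Mbd4, a glycosylase of T:G mismatches, was not above background on the parental array (50.4, against 61.3 without Rb), and nor was Rad54l, a recombination motor (53.2, against 68.9 without Rb). Of 20 germline genes known to be silenced by promoter methylation, 16 were not above background on any array and none of the other 4 passed the filter, Stag3 (above background on 1 array) and Tuba3a (0.22) having the largest Rb-deleted ratios. The deposited values hold no measurement of DNA methylation itself.

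Other genes of replication and of chromatin give the scale of the members' values. All 6 MCM helicase genes were more than 1.6-fold higher without Rb, and all but Mcm7 with each Rb protein. Of all genes 2.14% were without Rb, 0.888% with WT Rb and 2.58% with ΔCdk Rb. The MCM median log2 ratios were 1.956, 0.83 and 1.31, all larger than the members' medians of 1.20, 0.39 and 0.87. The largest were Mcm3 at 2.32, 1.54 and 1.80 and Mcm6 at 2.25, 1.02 and 1.36. The 7 genes of replacement histones gave medians of 0.26, 0.30 and 0.17, with H2afz alone past the filter, at 0.81 ± 0.04 with ΔCdk Rb, and H2afv (0.67) and H2afz (0.52) highest without Rb. The 14 detected G2/M genes gave 0.13, -0.11 and 0.27, with Cdc2a (0.52) and Cdc20 (0.44) highest without Rb. Their median was thus near the parental level on the Rb-deleted array, where Chaf1a and Chaf1b were not, and none of the 14 passed the filter there. With ΔCdk Rb 2 were more than 1.6-fold higher than parental, Cdc2a (0.76 ± 0.07) and Birc5 (0.91 ± 0.05), the second named after its values were seen. All 14 read higher with ΔCdk Rb than with WT Rb, but Kif11 (0.13 ± 0.17) and Ube2c (0.27 ± 0.19) did so within 2 bead standard errors.

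**Figure D5:**
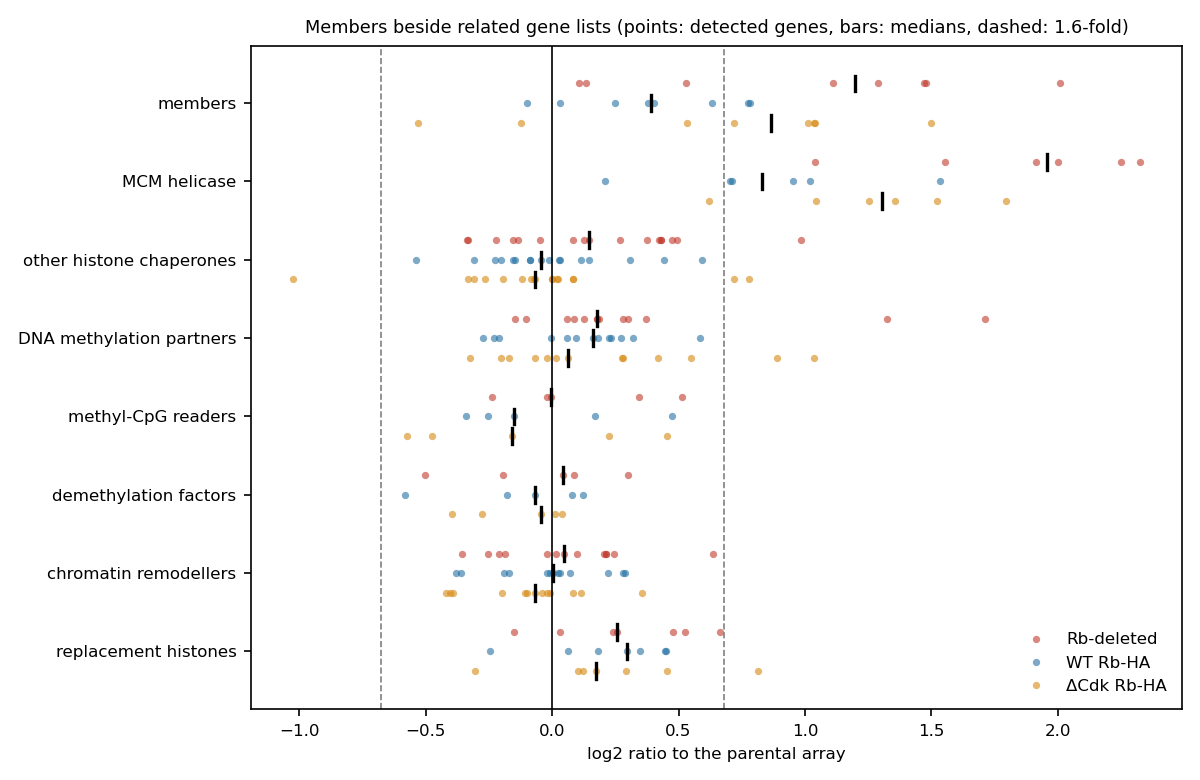
Log2 ratio to the parental array (horizontal axis) of each detected gene in the member list and 7 related lists, for the Rb-deleted, WT Rb and ΔCdk Rb arrays, with black bars at the medians and dashed lines at 1.6-fold. The member and MCM medians lie well to the right of 0 without Rb (1.20 and 1.956) and no other list shown has a median above 0.26 on the Rb-deleted array or above 0.30 on the other 2.

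The genes whose 3 ratios to parental were most like the members' median (1.20, 0.39 and 0.87) were sought among 10830 other genes detected on all arrays, by the straight-line distance between the 3 log2 ratios. The 5 nearest were Fignl1 (distance 0.10), Rpa1 (0.12), Timeless (0.13), Pold1 (0.17) and Wdr76 (0.19). Nearest to Uhrf1 were 4833427B12Rik (0.19), Rpa1 (0.24) and Cdt1 (0.26). Nearest to Dnmt1 were Mcm7 (0.12), Dnahc11 (0.14) and Nmral1 (0.15), and nearest to Chaf1b were Mcm5 (0.12), Wdhd1 (0.23) and Mcm2 (0.30). These distances rest on 4 arrays and the 3 ratios share the parental one, so likeness here is a description of these cultures.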

How the data were processed

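mRNA was measured on 4 Illumina MouseWG-6 v2.0 arrays, 1 per condition, grouped by the sample labels. The authors deposited a linear intensity per probe, not normalized between arrays, with its detection p-value, its bead standard error and the count of beads behind it, 28 to 61 for the member probes as deposited by the authors. The array software and its settings are not given in the sources used here. Genome positions deposited with the probes mix builds and were not used. Transcript positions were taken as deposited, and chromosomes came from RefSeq by the Entrez gene number of the probe.

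Background was corrected with limma 3.58.1 in R 4.3.3 (normexp on the detection p-values, offset 16), followed by quantile normalization over the 4 arrays and log2 transformation. Genes were kept if 1 array or more gave a probe a detection p-value below 0.01 (17746 probes, 12616 genes), and the probe with the highest mean log2 value stood for its gene. Symbols that had turned into dates (40 probes) were restored for 34. Bead standard errors were carried through each array's normalization and added in quadrature for a ratio. Against an array where a probe was not above background, a fold is a bound from the higher of its own value and the lowest detected value there. Such a bound leaves out the bead error. With 1 array per condition no test was run, and the number of arrays limits the precision. Promoters came from RefSeq (GRCm38.p6). Tables used Python 3.11.15, pandas 2.3.3, numpy 2.4.6 and scipy 1.17.1, and plots used matplotlib 3.10.9. The computations were tested on simulated data.

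The members, the related lists and the alternatives were chosen with earlier results of these data known. Named genes were all 10 members with every probe, the 2 genes with the largest Rb-deleted ratio in a related list, the genes nearest to the members' profile, and Rb1.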

Additional observations from a re-analysis of the deposited data

Results flagged for a closer look

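2 members had ratios of opposite sign for the 2 Rb proteins. Asf1a had a log2 ratio to parental of 0.031 with WT Rb and of -0.12 with ΔCdk Rb. Asf1b had a log2 ratio to Rb-deleted of -0.15 with WT Rb and of 0.19 with ΔCdk Rb. Each of these 4 ratios is within its bead standard error, there is 1 array on either side, and the difference between the 2 Rb proteins was not tested.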

How the results depend on the processing

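Of 10 alternatives, 4 (background and scaling) can move every member ratio. They gave 192 values for the 48 log2 ratios, of which 188 stayed within 1.96 bead standard errors. All 68 values of the 17 ratios past 1.6-fold kept their sign and 5 no longer passed. Averaging over probes moves Nasp alone among the members, and the detection filters and the 1.5- and 2-fold thresholds leave single ratios as they are. In each of the 10 alternatives 5 members were higher without Rb. Without background correction Asf1b with ΔCdk Rb against parental gave 0.46 and Chaf1b with ΔCdk Rb against WT Rb 0.65, so 0 members were higher in the latter comparison. With an offset of 50 these were 0.40 and 0.63 (again 0 members), Chaf1b with WT Rb against parental was 0.64 and left 1 member higher there, and the members' median with ΔCdk Rb was 0.67. Averaging all detected probes of a gene put Nasp at 0.41 with WT Rb, which left 1 member higher, and at 0.64 with ΔCdk Rb, where the median was 0.68. With no filter on dim probes, which adds Hells and Dnmt3a, the medians were 0.82 without Rb and 0.63 with ΔCdk Rb. At 1.5-fold, 1 member (Dnmt3b) was lower with ΔCdk Rb than without Rb, against 3.21% of all genes, and 2 were higher with ΔCdk Rb than with WT Rb. At 2-fold, 0 members were higher with WT Rb than in parental MEFs, 2 were lower with WT Rb than without Rb and 0 were higher with ΔCdk Rb than with WT Rb. Requiring detection on all 4 arrays dropped Asf1b.

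Counts over all genes depended more on these choices. Genes higher without Rb numbered 270, against 143 without background correction, 124 with an offset of 50, 444 at 1.5-fold and 67 at 2-fold. With WT Rb the 112 became 55, 46, 232 and 18, and with ΔCdk Rb the 325 became 172, 151, 502 and 78. The 61 genes lower with WT Rb than without Rb became 27, 23, 118 and 11, the 246 lower with ΔCdk Rb than without Rb became 119, 109, 405 and 68, and the 106 higher with ΔCdk Rb than with WT Rb became 54, 52, 199 and 23. Beside the fold thresholds, which change the counts by construction, the cause was not tested. No paired analysis was possible because each condition has 1 array. No array could be left out for the same reason. Differences near the lowest detected intensities (Asf1a, Asf1b) are limited by signal over background.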
